A study of Mus musculus with 11 samples.

Results

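Genes of the epithelial cell surface and of its protease inhibitors were examined in 3 regions of the mouse testis. The 9 genes are Epcam, Cd9, Mal2, Plet1, Prom1, St14, Prss8, Spint1 and Spint2, out of 18194 genes on the array with a probe set of their own, and they have 13 of its 45101 probe sets. A probe set was taken as belonging to one of them when the array annotation gave that gene symbol and no other. The genes were chosen by their signals in the same arrays with the contrasts to ST known, so their differences between regions are given as a description, without p-values.

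The study separated the rete testis (RT), the Sertoli valve (SV) and the convoluted seminiferous tubules (ST) of 7-week-old W/Wv mice. The RT is the epithelial network that collects fluid and sperm from the tubules, the SV is the terminal segment where a tubule opens into it, lined by modified Sertoli cells, and the ST were taken far from both. W/Wv mice carry mutant alleles of the receptor gene Kit and have tubules largely without germ cells, a state shared by all 3 groups. RNA was hybridised to 3 RT, 4 SV and 4 ST Affymetrix arrays, each from a pool of 20 testes, after trypan blue had been injected through the efferent ducts and fragments had been cut by hand. The methods state that SV fragments very probably held cells of the RT as well, because both belong to 1 continuous tube. Every array is a pool, so the spread between arrays is the spread between pools and not between mice.

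Epithelial cells that line a lumen carry surface proteins of their own, some but not all of them on the apical face. EpCAM is an adhesion molecule of simple epithelia, CD9 is a tetraspanin that gathers partner proteins in membrane patches, MAL2 carries cargo to the apical face, PLET1 is a surface antigen of progenitor epithelia and prominin-1 sits on membrane protrusions. Matriptase, the product of St14, and prostasin, the product of Prss8, are membrane-anchored trypsin-like proteases that activate each other and cleave channels, receptors and growth factor precursors. The Kunitz-type inhibitors HAI-1 and HAI-2, the products of Spint1 and Spint2, inhibit both proteases.

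Promoter sequence was at hand for 6 of the 9 genes (7 start sites) in the RefSeq table of build GRCm38.p6. The 250 bases before the start are shown for 4 of them, the adhesion gene, the progenitor antigen gene and both inhibitor genes, picked after the sequences were seen and including both promoters with ACCGGT. Capitals mark ACCGGT, which is the same on both strands and is the core of the site bound by grainyhead-like factors, CACCTG or its reverse complement CAGGTG, the word bound by ZEB and SNAI factors, and TATAAA.
Epcam (chr17:87635729-87635978, plus strand): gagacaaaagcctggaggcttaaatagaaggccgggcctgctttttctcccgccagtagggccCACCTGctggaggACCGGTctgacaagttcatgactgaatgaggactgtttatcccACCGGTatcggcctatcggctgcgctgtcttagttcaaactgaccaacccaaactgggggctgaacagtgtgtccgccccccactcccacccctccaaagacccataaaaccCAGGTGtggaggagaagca
Spint1 (chr2:119237110-119237359, plus strand): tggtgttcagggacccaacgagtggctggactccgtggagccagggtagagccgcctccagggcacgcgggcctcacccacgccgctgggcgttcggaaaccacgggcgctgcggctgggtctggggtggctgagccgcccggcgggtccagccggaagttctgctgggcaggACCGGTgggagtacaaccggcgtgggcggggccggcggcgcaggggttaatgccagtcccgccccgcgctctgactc
Spint2 (chr7:29281978-29282227, minus strand): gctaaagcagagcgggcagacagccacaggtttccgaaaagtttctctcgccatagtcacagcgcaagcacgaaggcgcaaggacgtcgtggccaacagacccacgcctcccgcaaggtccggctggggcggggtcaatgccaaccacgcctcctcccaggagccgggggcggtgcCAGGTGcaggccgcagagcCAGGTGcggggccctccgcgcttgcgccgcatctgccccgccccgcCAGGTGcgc
Plet1 (chr9:50494275-50494524, plus strand): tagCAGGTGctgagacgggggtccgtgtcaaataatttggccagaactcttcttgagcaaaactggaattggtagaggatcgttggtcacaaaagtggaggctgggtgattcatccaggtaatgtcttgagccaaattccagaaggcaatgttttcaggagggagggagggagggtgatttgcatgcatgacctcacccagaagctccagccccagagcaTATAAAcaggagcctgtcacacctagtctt

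The Epcam promoter held ACCGGT starting 174 and 131 bases before the start and CACCTG or CAGGTG 187 and 19 bases before it. The Spint1 promoter held ACCGGT once, 77 bases before its start. The Spint2 promoter held CACCTG or CAGGTG 3 times, 74, 55 and 9 bases before the start. The Cd9 promoter and 1 of the Prom1 start sites, which are not shown, held it once each, 73 and 222 bases before the start. Plet1 held it once 247 bases before and TATAAA 30 bases before the start. Of 32851 mouse promoters of the same length, 1.86% held ACCGGT, 17.2% held CACCTG or CAGGTG and 12.4% held TATAAA on either strand. These words were chosen after the sequences were seen, and a match is a run of letters, not a bound site.

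The rete testis markers separated all 3 regions, and the Sertoli cell markers set RT apart from the other two. The summed signal of 6 rete testis epithelium markers (Pax8, Krt7, Krt8, Krt18, Krt19 and Cdh1) was 15153 to 23767 in RT, 2056 to 5646 in SV and 202 to 333 in ST arrays, and none was listed at 0. The summed signal of 9 Sertoli cell markers was 26314 to 31490 in RT, 41405 to 59268 in SV and 56327 to 73814 in ST. The RT drains into the efferent ducts. Of 9 measured markers of duct and epididymis epithelium Foxj1 and Cftr were higher in RT and SV than in ST, and the other 7 were not called. The summed signal of all 9 was 2330.2 to 4051 in RT, 389 to 658 in SV and 162 to 224 in ST. In RT against ST 6 of 6 rete markers were higher and 6 of 9 Sertoli markers lower, and in SV against ST 5 rete markers were higher and 0 Sertoli markers were called. Of the other lists in RT against ST, 2 of 4 myoid markers were lower, 2 of 5 endothelial and 1 of 6 macrophage markers higher, 0 of 4 Leydig cell markers were called, and of 7 germ cell markers 4 were lower and Gfra1 was higher. The part of these cells in the values below was not tested. In RNA of whole fragments, fewer cells of a type and less RNA per cell cannot be told apart.

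The 9 genes were highest in RT, and their SV means lay between the RT and ST means. SV and ST arrays overlapped for Prom1, Prss8, St14 and Spint1. For St14 and Spint1 the log2 fold change in SV against ST was smaller than its standard error. A gene counted as called when limma gave an adjusted p under 0.05 and a change over 2-fold, on the probe set of the gene with the highest mean. By that measure 9 of 9 were higher in RT than in ST, where 12.5% of all genes were, 4 of 9 were higher in SV than in ST, where 2.39% of all genes were, and 8 of 9 were lower in SV than in RT, where 6.41% were. Every RT array lay above every ST array for 9 of 9 genes (24.5% of all genes), every SV array above every ST array for 5 of 9 (7.19%), and every RT array above every SV array for 9 of 9 (18%). The 9 genes had a median log2 fold change of 2.97 in RT against ST, 1.53 in SV against ST and -2.52 in SV against RT, beside 0.08, 0.02 and -0.04 over all genes. Because signals above ST chose the genes, these counts describe the choice, and the SV against RT values share the RT and SV arrays with it. The fits leave out the replicate numbers, which may pair the arrays in the SV comparisons. With the replicate number as a block 6 of 9 genes were higher in SV than in ST, where 601 of all 18194 genes were. By the same fit 8 of 9 were lower in SV than in RT, where 1397 of all genes were. In replicates 1 and 2 alone 9 genes were higher in RT than in ST, 6 higher in SV than in ST and 8 lower in SV than in RT. Of all 18194 genes 2345, 695 and 1141 were called there in the same order. In replicates 3 and 4 alone, with 1 RT array, calls were lost over all genes as well as for the 9 genes, in SV against ST too. Counts from that fit are therefore not given.

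**Figure D1:**
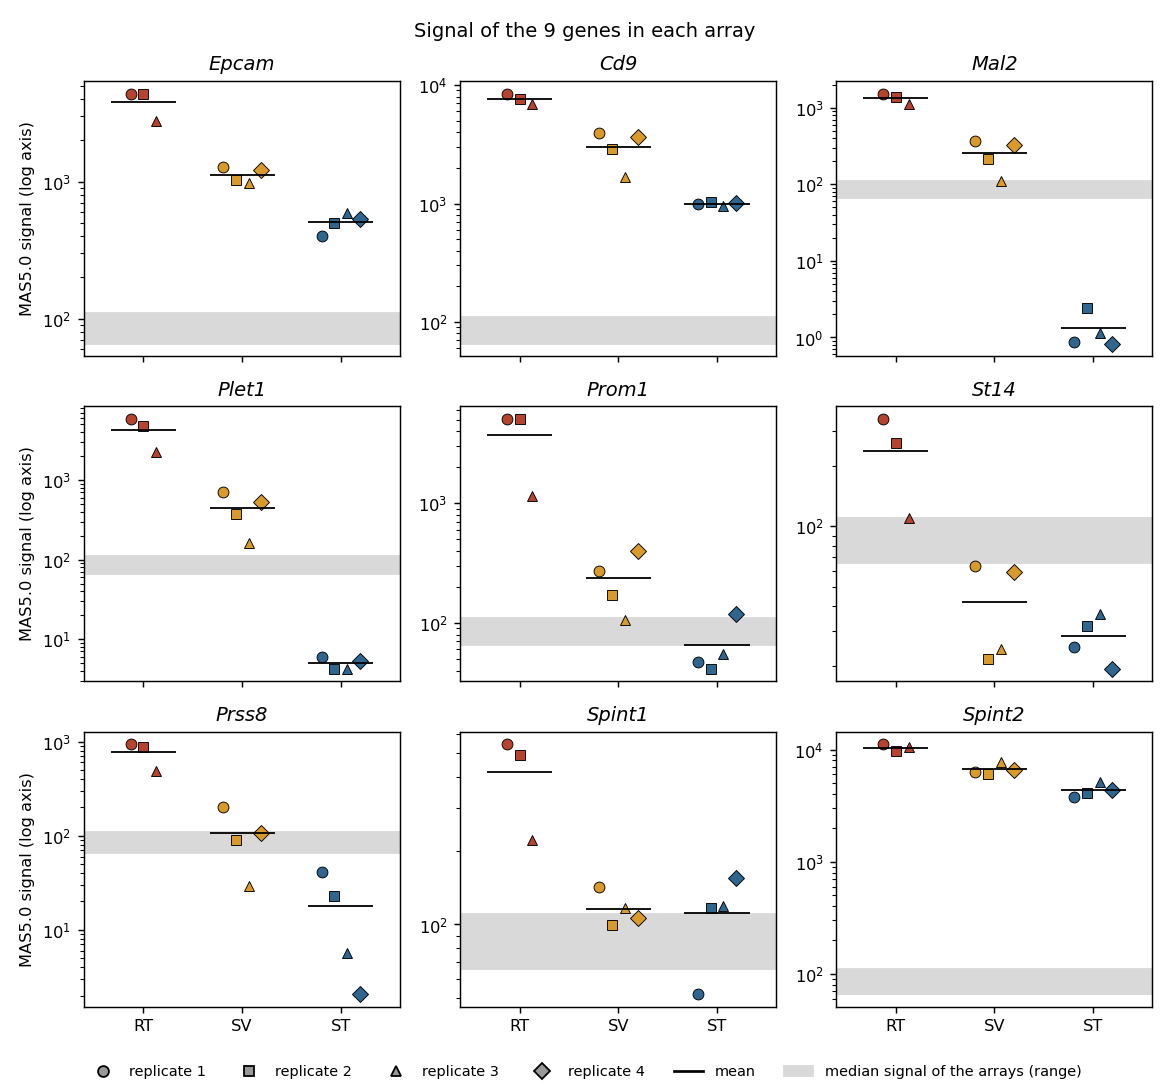
Signal of the main probe set of each gene (log axis, its range differing between panels) in 3 RT, 4 SV and 4 ST arrays. Horizontal lines are region means, symbols are replicate numbers and the grey band is the range of the 11 arrays' median signals. For all 9 genes the 3 RT arrays lie above the 4 SV arrays, while St14, Prom1, Prss8 and Spint1 have SV and ST arrays that overlap.

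Epcam had a MAS5.0 signal, the linear summary of its probes, of 4388, 4360.1 and 2744 in the 3 RT arrays, 1276, 1023, 975 and 1222 in the 4 SV arrays and 402, 499.8, 588 and 534 in the 4 ST arrays. The regions did not overlap, and ST lay at or above the 72.5 percentile of each array. The means were 3831 ± 941 in RT, 1124 ± 147 in SV and 506 ± 78.4 in ST (SD, n = 3, 4 and 4). On the log2 scale the change was 2.90 ± 0.19 for RT against ST, 1.16 ± 0.17 in SV against ST and -1.75 ± 0.19 in SV against RT (± SE from the limma fit). A dimmer probe set of Epcam had 615, 434 and 650.1 in RT, 208, 284, 259.7 and 299 in SV and 178, 217, 221 and 147 in ST. There SV and ST overlapped, and the log2 fold change in SV against ST was 0.47 ± 0.20 and under 2-fold. With both probe sets averaged, SV against ST was 0.81.

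Cd9 was bright in all regions, at or above the 83.4 percentile of every array. Its signal was 8475, 7683 and 6892 in RT, 3907, 2887, 1666 and 3619.5 in SV and 983, 1033, 948 and 1014 in ST arrays. The 4 ST arrays lay close together and the SV arrays spread more widely, with SV 3 lowest, and no region overlapped another. On the log2 scale the change was 2.95 ± 0.23 in RT against ST, 1.53 ± 0.21 in SV against ST and -1.41 ± 0.23 in SV against RT.

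Mal2 had 1535, 1378 and 1132 in RT, 369, 216, 111 and 323 in SV and 0.868, 2.39, 1.15 and 0.833 in ST. In ST it lay between the 1.00 and 3.68 percentile of the array's signals, at the bottom of what the array measures, while SV and RT were all above the array median. The log2 fold changes of 10.14 ± 0.49 in RT and 7.60 ± 0.45 in SV against ST therefore rest on a floor. They were 4.11 ± 0.32 and 1.57 ± 0.30 when signals under the array's own median were raised to it. SV against RT, where both sides were measured above that level, was -2.53 ± 0.49.

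Plet1 had 5859, 4751 and 2271 in RT, 715, 371, 160.3 and 531 in SV and 5.95, 4.27, 4.23 and 5.36 in ST. Its ST signals lay between the 7.07 and 13.7 percentile of the arrays, so Plet1 too was dim in ST, and SV spread over a wide range with SV 1 highest and SV 3 lowest. The log2 fold changes against ST were 9.67 ± 0.45 in RT and 6.31 ± 0.42 in SV, and 5.68 ± 0.38 and 2.32 ± 0.35 with signals raised to the array median. SV against RT was -3.36 ± 0.45. A second Plet1 probe set agreed in order, with 1906, 1442 and 729.5 in RT, 291, 112, 40.8 and 139.6 in SV and 7.29, 8.0, 6.16 and 2.79 in ST. The third, with 241, 239 and 142 in RT, 119, 135, 96.1 and 115 in SV and 56.6, 20.1, 63.0 and 14.4 in ST, kept that order with smaller steps, and its SV against RT value of -0.81 ± 0.48 was not called.

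Prom1 had 5031, 5088 and 1160.2 in RT, 274, 171, 105 and 402 in SV and 46.8, 41.3, 55.3 and 118 in ST. RT 3 stood apart from the other RT arrays at 0.229 of their mean, and SV 3 lay under ST 4, so SV and ST overlapped. On the log2 scale the change was 5.70 ± 0.56 in RT against ST, 1.83 ± 0.51 in SV against ST and -3.87 ± 0.56 in SV against RT. In replicates 1 and 2 alone RT against ST was 6.85, and in replicates 3 and 4 alone, with 1 RT array, it was 3.84. SV against ST was not called, but it was called with the replicate number as a block (1.83 ± 0.33) and without SV 3 (2.16) or RT 3 (1.83).

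The proteases were highest in RT. St14 lay under the array median in all SV and ST arrays. Prss8 lay under it in all ST arrays but in only 1 of 4 SV arrays, which ran from the 29.9 to the 62.1 percentile. St14 had 345, 261 and 109.8 in RT, 63.3, 21.6, 24.4 and 59.0 in SV and 25.1, 31.8, 36.5 and 19.4 in ST. All SV and ST arrays and RT 3 were under the array median, and SV and ST were intermixed. On the log2 scale the change was 2.97 ± 0.52 in RT against ST, 0.45 ± 0.48 in SV against ST and -2.52 ± 0.52 in SV against RT, and 1.47 ± 0.26, 0.11 ± 0.24 and -1.36 ± 0.26 with signals raised to the array median.

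Prss8 had 937, 874 and 489.8 in RT, 201, 90.2, 28.8 and 106 in SV and 40.7, 22.9, 5.62 and 2.07 in ST. Its RT arrays were clear of the rest, but SV 3 was below ST 1, and all ST arrays were under the array median. On the log2 scale the change was 6.18 ± 0.88 in RT against ST, 3.08 ± 0.82 in SV against ST and -3.09 ± 0.88 in SV against RT. With signals raised to the array median RT against ST was 3.25 ± 0.32 and SV against ST was 0.51 ± 0.30. SV against ST, not called as given, was called with the replicate number as a block (3.08 ± 0.56), and among the fits without 1 array it was called without SV 3 (3.61) or ST 1 (3.75). The call in SV against RT was lost without RT 1, RT 2, SV 2, SV 3 or SV 4, with values of -2.57 to -3.19.

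Of the inhibitor genes, Spint1 had 544, 492 and 221 in RT, 143, 99.3, 117 and 106 in SV and 51.9, 117, 119 and 155 in ST. Only RT stood apart, SV and ST overlapped, and the signals outside RT were near the array median. On the log2 scale the change was 1.92 ± 0.38 in RT against ST, 0.16 ± 0.36 in SV against ST and -1.76 ± 0.38 in SV against RT. The SV against ST value was -0.17 without ST 1, and SV against RT was no longer called without RT 1 (-1.52) or RT 2 (-1.59). In replicates 1 and 2 alone RT against ST was 2.73, and in replicates 3 and 4 alone it was 0.70.

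Spint2 had 11170.0, 9632 and 10458 in RT, 6358, 6088, 7793 and 6520.3 in SV and 3786, 4122, 5091 and 4369 in ST. It was bright in every region, at or above the 95.4 percentile of all arrays, and the regions did not overlap. Its steps in RT against ST and in SV against RT were the smallest of the 9 genes. The log2 fold changes were 1.27 ± 0.14 in RT against ST, 0.63 ± 0.13 in SV against ST and -0.64 ± 0.14 in SV against RT, so that only RT against ST passed 2-fold. With each array centred on its median RT against ST was 0.85 and under 2-fold. A second probe set had 1.35 ± 0.16, 0.55 ± 0.15 and -0.80 ± 0.16 in the same order of comparisons.

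**Figure D2:**
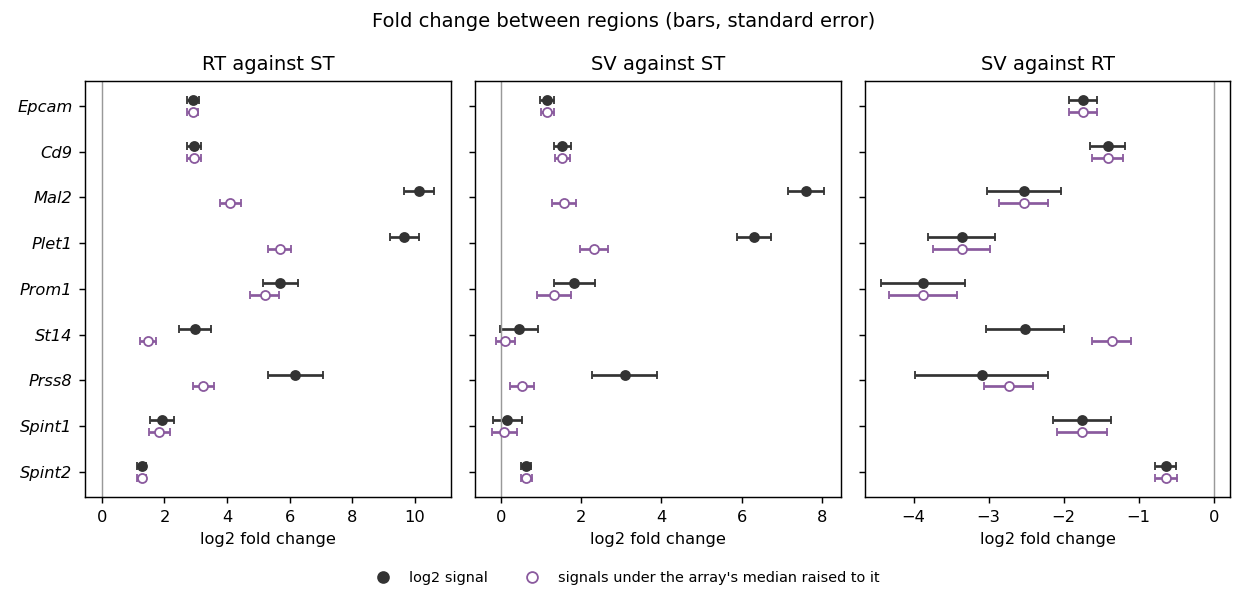
Log2 fold change of each gene's main probe set with its standard error in RT against ST, SV against ST and SV against RT (3 RT, 4 SV and 4 ST arrays). Filled points use the signals as deposited and open points use signals raised to the array median where they were under it, which shortens Mal2 in RT against ST to 4.11 and Plet1 to 5.68 but leaves Epcam, Cd9 and Spint2 in place.

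The arrays of a region differed in the same way for most of the genes. RT 3 was the lowest RT array for 8 of the 9 genes and RT 1 the highest for 8. Relative to the mean of RT 1 and RT 2, RT 3 had 0.229 of the Prom1 signal, 0.362 of St14, 0.426 of Spint1, 0.428 of Plet1, 0.541 of Prss8 and 0.627 of Epcam, but 0.777 of Mal2, 0.853 of Cd9 and 1.01 of Spint2. The rete testis markers Krt8, Krt18, Pax8 and Cdh1 had 0.536, 0.666, 0.808 and 0.847 of that mean in RT 3. The other rete markers were Krt19, with 904, 908 and 229.6 in the RT arrays, and Krt7, with 141.9, 88.7 and 93.1. Among SV arrays, SV 1 was highest for 7 of 9 genes and SV 3 lowest for 6. Set against the ST mean, the 9 genes had a median log2 excess of 3.65, 3.25 and 2.79 in RT and 1.97, 1.52, 0.85 and 1.86 in SV. The rete markers had 6.79, 6.59 and 5.90 in RT and 4.42, 3.55, 3.02 and 3.86 in SV, and the Sertoli markers -3.21, -3.09 and -2.08 in RT and -0.98, -0.49, -0.22 and -0.79 in SV. The duct markers had 2.61, 1.47 and 0.56 in RT and 0.96, 0.51, 1.05 and 0.77 in SV. All of them were dim in ST, with means from 5.08 for Lcn5 to 44.9 for Rnase10, under the median of every array. Their values therefore rest largely on a floor, and only Foxj1 and Cftr were called against ST. SV 3 was thus lowest of SV for both the 9 genes and the rete markers and nearest to ST for the Sertoli markers, and the part of cell makeup in this was not tested.

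**Figure D3:**
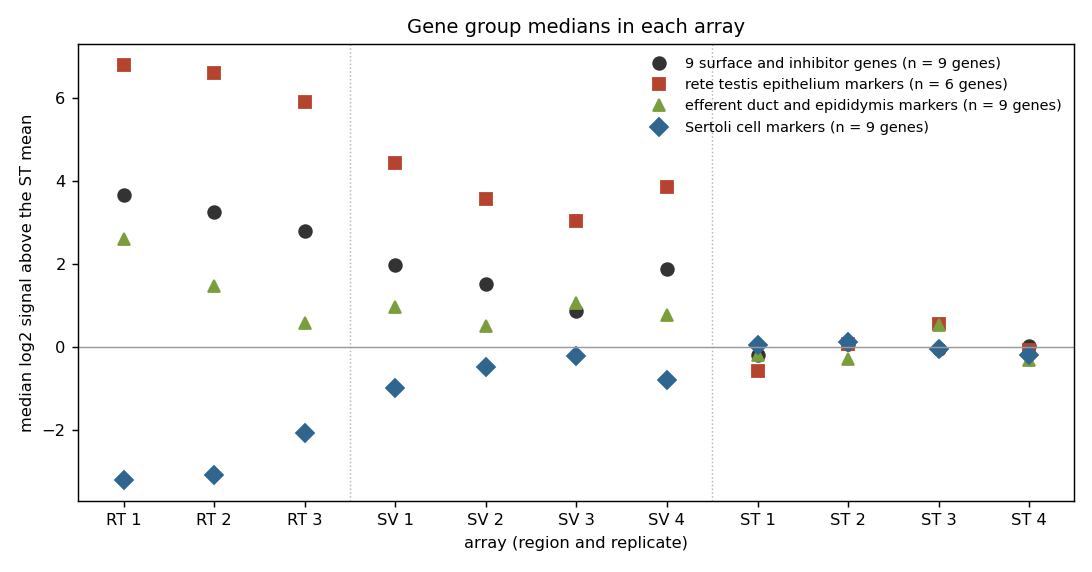
Median over the genes of a group of the log2 signal above the ST mean (y axis) in each of the 11 arrays (x axis). The 9 surface and inhibitor genes run from 2.79 to 3.65 in RT and 0.85 to 1.97 in SV, the rete testis markers lie higher and the Sertoli cell markers lie below 0 in every RT and SV array.

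SV means lay between the RT and ST means for all 9 genes, at different levels between them. The SV mean above the ST mean was 38.6% of the RT mean above the ST mean for Spint2, 30.3% for Cd9, 18.8% for Mal2, 18.6% for Epcam, 11.8% for Prss8, 10.2% for Plet1, 6.60% for St14, 4.68% for Prom1 and 1.70% for Spint1. The lowest SV array gave 28.7% for Spint2, under the 43.5% of the highest Cd9 array, and the arrays gave 1.08 to 9.12% for Prom1 and -3.77 to 10.3% for Spint1. Neighbours in this order overlapped throughout, while every SV array of Spint2 was above every SV array of the other genes except Cd9. The rete testis markers Krt18, Cdh1, Pax8 and Krt8 had 21.2%, 20.7%, 18.6% and 10.8% on the same measure. It was not computed for the other markers of that list, Krt19 and Krt7. Krt19 averaged 680.7 in RT, 67.8 in SV and 8.20 in ST, and Krt7 107.9, 41.7 and 37.9, which places both below Krt8. The percentages are ratios of differences within a probe set, and they depend on how linear each probe set is.

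**Figure D4:**
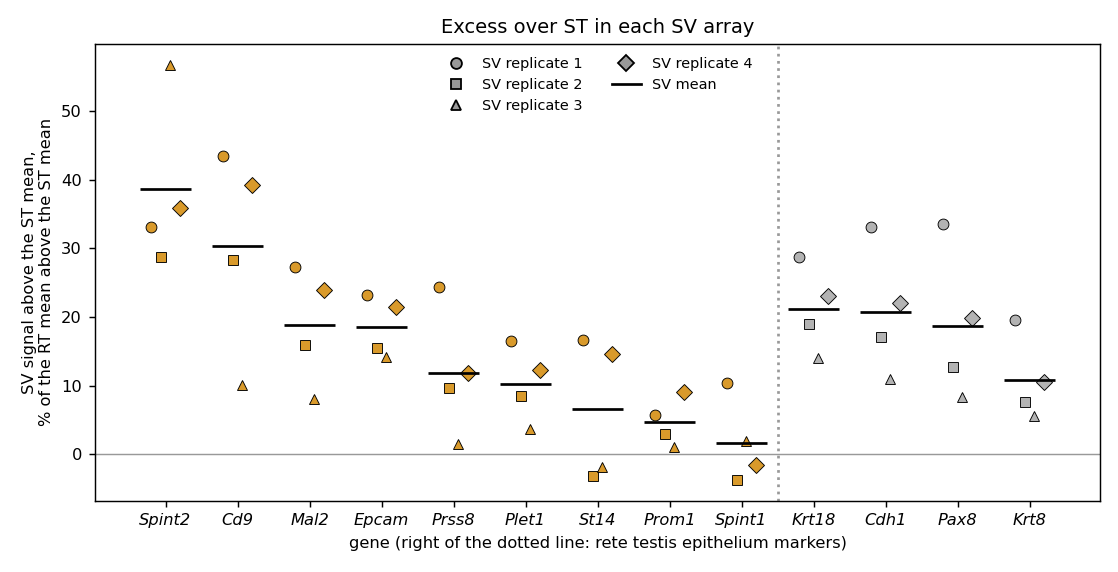
SV signal above the ST mean as a percentage of the RT mean above the ST mean (y axis) for the 9 genes and, right of the dotted line, 4 of the 6 rete testis epithelium markers. Points are the 4 SV arrays and bars their mean, from 38.6% for Spint2 to 1.70% for Spint1, with SV 3 the lowest array for Cd9, Mal2, Epcam, Prss8, Plet1, Prom1 and the 4 markers.

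Relatives and partners of these genes were listed by function, 120 in all, of which 111 had a probe set of their own. The lists were drawn up with earlier results of these data known, so their counts against all genes are a description. In RT against ST 39 were higher (12.5% of all genes) and 10 lower (7.34%), with limma and Benjamini-Hochberg adjustment over all probe sets, and their median log2 fold change was 0.71 beside 0.08 over all genes. In SV against ST 5 were higher (2.39%) and 0 lower (0.0769%), and in SV against RT 24 were lower (6.41%) and 7 higher (4.39%). The 5 genes higher in SV were Podxl, Scnn1a, Cd44, Tspan8 and Prss23, and with the replicate number as a block the count was 9. Without SV 3 that count was 13, and it was 3 without SV 1, SV 2, SV 4, ST 1 or ST 3, while the 24 lower in SV against RT became 11 without RT 1. Over all genes the 435 higher in SV against ST became 785 without SV 3. They became 267, 323, 280, 346 and 358 without SV 1, SV 2, SV 4, ST 1 and ST 3. The 1166 genes lower in SV against RT became 719 without RT 1. With each array centred on its median, RT against ST had 34 higher and 16 lower, a scaling that moved the median log2 fold change of all genes by -0.42. Of the 56 relatives with several probe sets, 16 had another probe set with a different call in RT against ST, 7 in SV against ST and 17 in SV against RT.

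Of 19 other serine proteases measured, most but not all of the cell surface, 3 were higher in RT than in ST (Hpn, Tmprss2 and Prss23). Another 3 were lower (Tmprss5, Corin and Tmprss13) and 13 were not called. That is 15.8% in each direction, beside 12.5% of all genes higher and 7.34% lower. Hpn, which encodes hepsin, had 269.5, 342 and 65.6 in RT and 33.8, 9.20, 6.84 and 16.1 in ST (3.74 ± 0.85, adjusted p = 0.00503), and RT 3 was again far below the other RT arrays. Tmprss2, an epithelial transmembrane protease gene, had 272, 201 and 70.0 in RT and 27.2, 30.5, 36.0 and 42.9 in ST (2.22 ± 0.48, adjusted p = 0.004). All ST arrays of both genes were under the array median, and with signals raised to it RT against ST was 1.48 ± 0.26 for Hpn and 1.23 ± 0.22 for Tmprss2. For Prss23, a secreted protease gene, RT 3 was instead the highest RT array, with 877, 766 and 1800.2 in RT, 693, 807, 499.9 and 1009 in SV and 299.9, 360.5, 228 and 277 in ST. It was higher in SV than in ST by 1.34 ± 0.27 (adjusted p = 0.0205) and in RT by 1.89 ± 0.29 (adjusted p = 3.41e-04). Corin, which encodes the protease that processes natriuretic peptide precursors, ran the other way, with 540.0, 648 and 840.0 in RT, 1151, 1422, 3193 and 2049 in SV and 2946, 2890.0, 4061 and 3777 in ST (RT against ST -2.35 ± 0.29, adjusted p = 5.42e-05). Tmprss5 (-3.27 ± 0.65, adjusted p = 0.0022) and Tmprss13 (-2.18 ± 0.44, adjusted p = 0.00232) were lower in RT as well, and both were weak in ST, where no signal exceeded 222 for Tmprss5 or 140.2 for Tmprss13. With signals raised to the array median both lost the call, at -0.68 ± 0.23 and -0.089 ± 0.20.

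Substrates and receptors of the protease system were higher in RT or not called. Of 11 measured, 3 (27.3%) were higher in RT than in ST and none lower. All ST arrays of these 3 genes were under the array median, and with signals raised to it RT against ST was 3.17 ± 0.31 for Cdcp1, 2.87 ± 0.25 for Met and 2.52 ± 0.28 for Scnn1a. Cdcp1, a surface protein cleaved by matriptase, had 738, 629 and 744 in RT and 8.35, 79.1, 21.8 and 50.3 in ST (4.59 ± 0.62, adjusted p = 1.20e-04), with no overlap. Met, the receptor of hepatocyte growth factor, whose precursor is cleaved by proteases of this kind, had 584, 631 and 499 in RT, 144, 90.7, 87.1 and 108 in SV and 39.9, 79.3, 58.4 and 76.1 in ST. Met was higher in RT than in ST (3.21 ± 0.28, adjusted p = 5.17e-06) and lower in SV than in RT (-2.43 ± 0.28, adjusted p = 2.53e-04), and SV against ST was not called (0.78 ± 0.26, adjusted p = 0.178). Scnn1a, the alpha subunit of the epithelial sodium channel that prostasin activates, had 453, 525 and 375 in RT, 252, 117, 189.5 and 186 in SV and 30.2, 42.8, 78.7 and 58.4 in ST. It was higher in RT (3.18 ± 0.34, adjusted p = 1.89e-05) and in SV (1.86 ± 0.31, adjusted p = 0.0064) than in ST, without overlap of regions. For Scnn1b, its beta subunit, RT against ST was not called (1.00 ± 0.36, adjusted p = 0.06), while it was lower in SV than in RT (-1.42 ± 0.36, adjusted p = 0.0188), a call lost without RT 1 (-1.28) or RT 2 (-1.52).

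Of 10 other genes with Kunitz inhibitor domains, 9 were not called in RT against ST and 1 (10%), Eppin, was lower. Eppin, which encodes a protein that coats sperm, had 3980.2, 4329.7 and 5166 in RT and 9483, 8440.1, 9771 and 8854 in ST (-1.03 ± 0.21, adjusted p = 0.00248), with no overlap. In SV against ST it was -0.83 ± 0.19 (adjusted p = 0.043) and under 2-fold. The RT call just passed 2-fold and was lost without RT 1 (-0.95) or without ST 3.

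Of 28 other tetraspanins measured, 8 (28.6%) were higher and 2 (7.14%) lower in RT than in ST, the share of lower ones being close to that of all genes. Tspan1 (3.95 ± 0.72, adjusted p = 0.00115), Tspan33 (3.83 ± 0.26, adjusted p = 8.15e-07) and Tspan13 (2.81 ± 0.36, adjusted p = 7.29e-05) had the largest called fold changes. The value of Tspan1 rests on dim ST signals of 16.8, 19.2, 20.1 and 6.60, all under the array median, as those of Tspan33 were. With signals raised to it RT against ST was 1.51 ± 0.17 for Tspan1, 3.54 ± 0.27 for Tspan33 and 2.81 ± 0.33 for Tspan13. Tspan33 had 1089.7, 1026 and 656 in RT and 48.7, 75.9, 75.6 and 57.9 in ST. The 2 that fell were Tspan17 (-2.02 ± 0.25, adjusted p = 6.55e-05) and Tspan5 (-1.52 ± 0.23, adjusted p = 2.88e-04). Tspan17 had 571, 639.9 and 1492 in RT, 4432, 4259.5, 3821 and 4054 in SV and 3843, 3358, 3196 and 2958 in ST, and SV against ST was not called (0.32 ± 0.24, adjusted p = 0.658). Tspan8 had 2840.2, 2943 and 3403 in RT, 3348, 2874, 1026 and 2665 in SV and 958, 1016, 525 and 903 in ST, and it was higher in SV than in ST (1.46 ± 0.32, adjusted p = 0.0297). For Tspan8 the SV and RT arrays overlapped, and SV 3 was far below the other SV arrays. Of the 26 alternative settings tried, the SV calls of Tspan8 and Prss23 were lost in 14 and 10, among them most fits without 1 SV or ST array.

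Of 6 binding partners of CD9 and other tetraspanins, 2 (33.3%) were higher and 3 (50%) lower in RT than in ST. Ptgfrn, which encodes a direct CD9 partner, had 1508, 1136 and 948 in RT, 376, 330.0, 263 and 365 in SV and 256, 244, 232 and 238 in ST (RT against ST 2.28 ± 0.18, adjusted p = 2.49e-06). Igsf8, its relative and also a direct CD9 partner, went the other way, with 524, 585 and 648 in RT and 1618, 1556, 1336 and 1602 in ST (-1.39 ± 0.20, adjusted p = 2.22e-04). Of the laminin receptor subunits, Itga3 rose (1.46 ± 0.18, adjusted p = 6.38e-05) and Itga6 fell (-1.54 ± 0.20, adjusted p = 7.99e-05) in RT. Hbegf, an EGF receptor ligand that associates with CD9, also fell (-1.16 ± 0.29, adjusted p = 0.00893), a call lost at -0.41 ± 0.23 with signals raised to the array median.

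Of 14 MAL and MARVEL domain genes, 7 (50%) were higher in RT than in ST and none lower, and 0 were called in SV against ST. Mal, the paralogue of Mal2 in apical transport, had 1081, 1109 and 1198 in RT, 769, 645, 288 and 822 in SV and 359, 282, 192 and 420.3 in ST. It was higher in RT than in ST by 1.91 ± 0.33 (adjusted p = 8.20e-04), and unlike those of Mal2 its ST signals were above the array median. Myadm rose by 1.81 ± 0.16 (adjusted p = 4.37e-06). Marveld3, a tight junction gene, had 5.41 ± 1.03 (adjusted p = 0.00149), but 3 of its ST arrays were at 2.80 or below and the size of that change rests on them. With signals raised to the array median it was 1.03 ± 0.18. Marveld2, which encodes tricellulin, was lower in SV than in RT (-1.86 ± 0.31, adjusted p = 0.00172).

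The 3 measured paralogues and partners of EpCAM and prominin-1 were all higher in RT than in ST. Prom2, the paralogue of Prom1, had 535, 459 and 70.8 in RT, 21.9, 32.6, 27.2 and 20.2 in SV and 7.34, 6.33, 42.9 and 2.87 in ST (4.90 ± 0.87 in RT against ST, adjusted p = 9.07e-04). RT 3 was far below RT 1 and RT 2, as it was for Prom1, and with signals raised to the array median RT against ST was 1.95 ± 0.36. Cd44, an EpCAM-associated adhesion receptor gene, had 1297, 1111 and 1041 in RT, 393, 237, 162 and 246 in SV and 79.1, 81.3, 60.5 and 101 in ST, and was higher in RT (3.85 ± 0.27, adjusted p = 9.59e-07) and in SV (1.64 ± 0.25, adjusted p = 0.00309). Cldn7, a claudin that binds EpCAM, had 1402, 1237 and 359.6 in RT and 345, 268, 399 and 364 in SV. Cldn7 was higher in RT than in ST (1.84 ± 0.37, adjusted p = 0.0024) and lower in SV than in RT (-1.33 ± 0.37, adjusted p = 0.0303), although RT 3 lay within the range of SV and the SV against RT call was lost without RT 1, RT 2, SV 1, SV 2 or SV 4 (-0.97 to -1.36).

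Other apical surface and polarity genes were mostly higher in RT, with 13 of 20 (65%) higher and 1 (5%) lower. Podxl, which encodes the sialomucin podocalyxin, had 6514, 4413 and 5627 in RT, 2011, 1132, 605 and 1881 in SV and 176, 187, 132 and 224 in ST. No region overlapped another, and Podxl was higher in RT (4.95 ± 0.34, adjusted p = 9.50e-07) and in SV (2.85 ± 0.32, adjusted p = 3.10e-04) than in ST. Dpp4, an apical peptidase gene, had 4.69 ± 0.81 (adjusted p = 7.21e-04) and Cdhr2, a cadherin gene of microvilli, 4.28 ± 0.89 (adjusted p = 0.0029) in RT against ST. Both were dim in ST, with 11.9, 3.76, 14.3 and 30.1 for Dpp4 and 2.81, 4.19, 5.18 and 29.2 for Cdhr2, and with signals raised to the array median the values were 2.04 ± 0.38 for Dpp4 and 0.97 ± 0.17 for Cdhr2, which was then under 2-fold. Pard6b, which encodes a subunit of the apical PAR polarity complex, was the 1 that fell, with 466, 395 and 649.9 in RT, 1053, 1296, 1550.3 and 1298 in SV and 1239.9, 1561, 1894 and 1665 in ST (-1.67 ± 0.19, adjusted p = 3.66e-05).

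**Figure D5:**
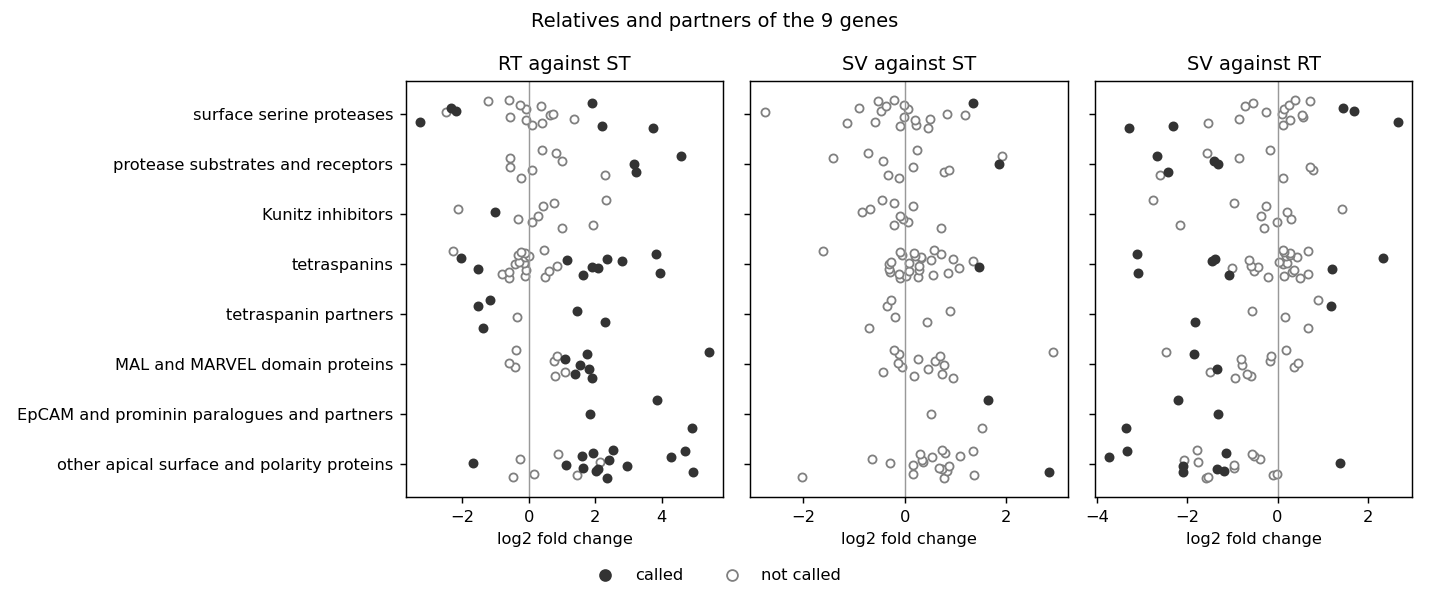
Log2 fold change (x axis) of the 111 measured relatives and partners in each comparison, by list. Filled points were called (adjusted p under 0.05 and over 2-fold, limma, 3 RT, 4 SV and 4 ST arrays), 39 to the right and 10 to the left in RT against ST, but 5 and 0 in SV against ST.

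The genes outside the 9 whose log2 profile was most like their median centred profile were Aqp1, a water channel gene, with Pearson's r = 0.995, the kinase gene Wnk2 (0.991), the transcription factor gene Bhlhe40 (0.990), the cell cycle kinase gene Cdk6 (0.990) and the desmosomal cadherin gene Dsg2 (0.986). The likeness was taken over 11 arrays and 11586 candidate genes, and the arrays share regions, so no p is given. Aqp1 averaged 2710.2 ± 1669 in RT, 209.6 ± 82.1 in SV and 43.0 ± 5.31 in ST (SD, n = 3, 4 and 4). The 9 genes themselves had r between 0.848 for Spint1 and 0.991 for Epcam with the profile they make up.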

How the data were processed

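RNA of RT, SV and ST fragments of W/Wv testes was hybridised by the authors to Affymetrix Mouse Genome 430 2.0 arrays after labelling with the GeneChip 3′ IVT Plus kit. The deposited values are intensity values, MAS5.0 signals that the authors scaled per array, with a trimmed mean of 500.0 in each array (lowest and highest 2% left out) and a median of 65.8 to 110.4. No detection calls were used here, so dim signals are described by their place in the array. The number of arrays, 3, 4 and 4, limits the precision, since no read depth applies.

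Log2 signals of all 45101 probe sets and 11 arrays were fitted with limma 3.58.1 in R 4.3.3 (lmFit, and eBayes with an intensity trend), and p-values were adjusted by Benjamini-Hochberg over all probe sets. This replaces the study's Student's test, which was kept as an alternative. A call needs an adjusted p under 0.05 and over 2-fold. A gene is represented by its probe set with the highest mean log2 signal, and probe sets with several symbols or none were left out. The fit was tested on simulated data. Figures and summaries used Python 3.11.15, pandas 2.3.3 and matplotlib 3.10.9.

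The 9 genes, the lists of relatives and the marker lists were chosen with earlier results of these data known. Named relatives are up to 3 per list, comparison and direction with the largest called change, and the 5 genes of most similar profile were taken among those with a mean above the median of all probe sets. The labels give 3, 4 and 4 arrays, while the design text counts 3 per region. Alternatives were another test, scaling, floor, added constant (32), filter, probe set rule, block or set of arrays.

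Replicate numbers come from the titles, and no label ties them to a litter or day. Deviations from the region means over all probe sets correlated between same-numbered arrays at 0.14 to 0.19 in SV and ST (4 of 4 pairs over 0.1), 0.10 to 0.15 in SV and RT (3 of 3) and 0.069 to 0.15 in RT and ST (1 of 3), where all 3 pairs passed among the brighter probe sets. By that threshold the numbers were taken to pair the arrays in the SV comparisons but not in RT against ST, a choice made with the results of the block known. Arrays of different numbers within replicates 1 and 2 or within 3 and 4 correlated at 0.070 to 0.18 over all probe sets. Of 11 arrays 10 correlated best with an array of their own number. Pairing by number is thus not certain, and the fit with the block is given where it changes a call. Arrays of replicates 1 and 2 correlated with those of replicates 3 and 4 in other regions at -0.18 to -0.076.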

Additional observations from a re-analysis of the deposited data

How the results depend on the processing

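Each value was recomputed under 26 alternatives. For the 9 genes, 229 of 234 values in RT against ST kept direction and call and 5 lost the call, in SV against ST 214 kept both, 7 lost the call, 11 gained it and 2 changed sign, and in SV against RT 211 kept both and 23 lost the call. Members called without any 1 array were 9 in RT against ST, 4 to 6 in SV against ST and 6 to 8 in SV against RT. Relatives without any 1 array were 34 to 40 higher and 9 to 12 lower in RT against ST, 3 to 13 higher in SV against ST and 11 to 28 lower in SV against RT. Over all genes the ranges were 1888 to 2298 higher and 1186 to 1547 lower in RT against ST. In the SV comparisons they were 267 to 785 higher against ST and 719 to 1258 lower against RT. With the methods' t-test and Benjamini-Hochberg adjustment, 2 of the 9 genes were higher in SV against ST and 1 was lower in SV against RT, and of the relatives 0 were higher in SV against ST and 8 lower in SV against RT. Over all genes that test called 50 higher in SV against ST, beside 435 in the main fit. It called 463 lower in SV against RT, beside 1166. In replicates 3 and 4 alone, where the 1 RT array is assumed to vary like the others, these 4 counts were 0, 0, 0 and 0, and relatives in RT against ST were 17 higher and 5 lower. In replicates 1 and 2 alone, 12 relatives were higher in SV against ST, beside 695 of all genes. That count was 3 without the intensity trend, beside 280 of all genes, and 3 with a floor of 32, beside 288. Median centring gave 16 relatives lower in RT against ST, beside 2724 of all genes. Changes of sign were Spint1 in SV against ST (-0.29 in replicates 3 and 4 alone, -0.17 to 0.36 without any 1 array), Tmprss13 in SV against RT (-0.022 with signals raised to the array median), Cldn7 in SV against RT (0.083) and Rab17 in RT against ST (-0.15), both in replicates 3 and 4 alone. The cause of these changes was not tested.

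With the replicate number as a block, 9 relatives and 6 of the 9 genes, Prom1 and Prss8 in addition, were higher in SV against ST. The block moved no other count of members or relatives by over 1.5 times. It gave 29 relatives lower in SV against RT, beside 24 without it, and 40 higher in RT against ST, beside 39. Only the 9 genes and the relatives already called without the block were followed singly, so relatives that gained a call are not named. Among those followed it changed 1 other call, Mpp5 in RT against ST (0.89, no longer called).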
